A study of Mus musculus with 6 samples.

Results

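The 132 genes described here are mouse zinc finger genes named Zfp and a number that lie apart from other such genes by the rule given next. They were chosen from a table of 55335 annotated genes as protein-coding genes with such a name, other than Zfp36, with a total of at least 60 counts over 6 libraries and no other such gene within 100 kb on the same chromosome. The table held 364 coding genes with such a name, of which 57 fell under 60 counts and 175 had another such gene within 100 kb. These 175 genes are called clustered below, and the 132 are called isolated. The total is summed over both conditions, so it does not use the difference between them, but the genes were chosen as a set with earlier results on these libraries known.

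Total RNA was sequenced from bone marrow-derived macrophages (BMDMs) of C57BL/6 mice, which per the study's methods were males of 7 to 10 weeks. Bone marrow cells had grown for 6 days in medium with 20% L929-conditioned medium, a source of the macrophage growth factor M-CSF. The 3 PBS libraries came from cells given PBS for 1 h, and the 3 LPS libraries from cells given LPS, the bacterial lipopolysaccharide that Toll-like receptor 4 senses, for 1 h. Both groups were wild type by their library names, and replicates were numbered 1 to 3 in each. The labels do not say whether the replicates came from separate animals, so p-values measure only the spread between these libraries. The question here was which isolated Zfp genes had a different RNA level after 1 h of LPS, and what the falls and the rises had in common.

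Libraries held between 37787611 and 41516330 counts. Tnf rose by 6.83 and Il1b by 11.77 on the log2 scale in LPS, which checks the group labels. The 7 macrophage markers of a fixed list were all tested, and 0 passed the criteria for a change. Summed, they stood at 29548 to 30823 normalized CPM (read counts per 1000000, after edgeR's TMM scaling) in PBS and at 32289 to 32639 in LPS. T cell and B cell marker lists each summed to at most 1.25 CPM in any library. The neutrophil list summed to 33.2 to 35.1 CPM in PBS and 43.4 to 45.3 in LPS, with Ly6g at 4 counts in all. The mast cell list stood at 5.08 to 6.35 CPM in PBS and 9.25 to 9.64 in LPS, and the fibroblast list at 7.59 to 8.67 and 8.67 to 9.80. Both dendritic cell markers, Flt3 and Zbtb46, passed the criteria upward, with a sum of 1.173 to 1.409 CPM in PBS and 4.41 to 5.36 in LPS. The part of these other cell types in the results below was not tested.

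C2H2 zinc finger proteins carry repeats of a short fold in which cysteines and histidines hold a zinc ion, and successive fingers read successive bases of DNA. Many mouse members also carry a KRAB domain at the N terminus, which recruits the corepressor KAP1 (Trim28) and, through it, the methyltransferase Setdb1 and heterochromatin, often at retroelements. KRAB genes arose by repeated tandem duplication and mostly lie in clusters. Zinc finger genes outside the clusters are a mixed group. Some are older regulators without KRAB, with BTB domains, ribosome or RNA partners, ligase activity or chromatin cofactors as their known business, and others are KRAB genes on their own.

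The label "isolated" held only relative to the naming rule. Of the 132 genes, 25 had another coding gene, of any name, with at least 5 C2H2 finger matches within 100 kb. The 11 with a Zfp gene under 60 counts within that distance were all among these 25. Finger matches are pattern matches to the longest annotated coding sequence of each gene: 2 cysteines with 2 to 4 residues between them, 12 residues, and 2 histidines with 2 to 6 residues between them. By this pattern 129 of the 132 genes had at least 1 finger, 3 had none, the median was 9 and Zfp142 had the most with 36. A KRAB signature before the first finger, also a pattern match, was found in 45 of the 132. The same signature, at any place in the protein, was found in 0.725% of 21091 coding genes without a finger match. How often the pattern misses a KRAB domain was not tested. At the count limit, Zfp428 (61 counts in total), Zfp366 (75) and Zfp507 (75) lay just inside, and Zfp37 (57), Zfp977 (57) and Zfp831 (56) just outside. At the distance limit, Zfp141 lay 103785 bp and Zfp979 111460 bp from the nearest such gene, while Zfp605 and Zfp932 lay 99680 bp apart and were left with the clustered genes. Of the 132, 0 were under 30 counts over the PBS libraries, and 3 (Zfp965, Zfp979 and Zfp428) were under 30 over the LPS libraries. All 132 passed the filter on low counts and were tested.

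The promoters of the lowest 3 falls and of the highest 3 rises with a RefSeq window are printed here. Zfp703 and Zfp516 rose more than Zfp451 but had no window in the set used. The printed windows are on GRCm38.p6, from 250 bases before to 50 bases after the start, 5′ to 3′ on the gene's strand. Capitals mark matches to the motifs described after them. The windows are chr5:138441226-138441525 (+) for Zfp157, chr7:25221175-25221474 (+) for Zfp526, chr11:58904176-58904475 (-) for Zfp39, chr9:18473596-18473895 (-) for Zfp558, chr13:119790683-119790982 (-) for Zfp131 and chr1:33814546-33814845 (-) for Zfp451.
Zfp157: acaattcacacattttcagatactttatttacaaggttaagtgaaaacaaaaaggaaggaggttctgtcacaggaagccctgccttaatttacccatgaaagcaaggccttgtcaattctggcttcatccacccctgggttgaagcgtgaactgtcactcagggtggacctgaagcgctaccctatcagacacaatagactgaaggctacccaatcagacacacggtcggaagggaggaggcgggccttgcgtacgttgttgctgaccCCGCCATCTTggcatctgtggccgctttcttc
Zfp526: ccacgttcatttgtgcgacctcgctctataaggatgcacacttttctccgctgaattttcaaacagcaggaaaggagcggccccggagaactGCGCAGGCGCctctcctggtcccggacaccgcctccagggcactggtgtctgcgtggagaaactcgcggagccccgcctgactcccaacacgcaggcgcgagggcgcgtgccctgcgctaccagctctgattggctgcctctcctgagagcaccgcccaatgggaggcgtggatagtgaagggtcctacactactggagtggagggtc
Zfp39: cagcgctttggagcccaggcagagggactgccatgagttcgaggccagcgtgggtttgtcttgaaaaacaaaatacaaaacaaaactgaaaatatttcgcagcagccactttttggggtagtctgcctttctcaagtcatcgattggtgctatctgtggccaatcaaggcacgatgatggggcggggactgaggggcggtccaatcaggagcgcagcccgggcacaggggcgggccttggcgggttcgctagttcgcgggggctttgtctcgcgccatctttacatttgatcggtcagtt
Zfp558: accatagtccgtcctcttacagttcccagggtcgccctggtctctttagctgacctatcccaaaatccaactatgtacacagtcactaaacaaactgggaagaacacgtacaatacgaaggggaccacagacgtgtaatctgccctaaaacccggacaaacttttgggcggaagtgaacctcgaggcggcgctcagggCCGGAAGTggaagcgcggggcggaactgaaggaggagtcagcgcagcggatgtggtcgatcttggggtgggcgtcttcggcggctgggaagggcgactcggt
Zfp131: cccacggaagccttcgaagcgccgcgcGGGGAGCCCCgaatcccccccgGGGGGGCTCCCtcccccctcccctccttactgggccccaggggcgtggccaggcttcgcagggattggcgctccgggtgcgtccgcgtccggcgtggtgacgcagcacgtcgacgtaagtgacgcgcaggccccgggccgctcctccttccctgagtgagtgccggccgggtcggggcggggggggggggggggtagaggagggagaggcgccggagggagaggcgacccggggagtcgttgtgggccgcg
Zfp451: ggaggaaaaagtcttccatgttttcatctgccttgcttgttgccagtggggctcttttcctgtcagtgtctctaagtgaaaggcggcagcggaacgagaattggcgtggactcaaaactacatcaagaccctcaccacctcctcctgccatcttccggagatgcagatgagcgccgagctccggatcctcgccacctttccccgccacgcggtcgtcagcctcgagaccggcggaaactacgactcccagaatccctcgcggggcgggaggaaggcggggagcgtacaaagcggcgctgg

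The RefSeq start of Zfp558 in this window lies 4623 bp from the outer start of the GENCODE gene and that of Zfp131 157 bp, while the other 4 lie within 8 bp of it. RefSeq windows were found for 104 of the 132 genes, 141 windows in all, among 32851 windows of all genes. Each window was counted separately, also where a gene had several. The 7 windows of genes that rose came from 5 genes, with 2 windows each for Zfp558 and Zfp131. On either strand, 9 motifs were searched. The NF-kB consensus, named for the factor that LPS activates, matched in 13 of the 141 windows (9.22%), against 8.46% of all windows, 5.36% of the windows of genes that fell, and 2 of the 7 windows of genes that rose. In the printed Zfp131 window it matched 3 times, at 223, 201 and 200 bases before the start, the last 2 of which overlap. The ETS letters CCGGAAGT were found in 12.8% of the isolated Zfp windows and 3.89% of all. Zfp558 held them 52 bases before its start. The NRF1 motif matched in 10.6% against 4.60%, with a match 158 bases before the Zfp526 start, and the YY1 motif in 3.55% against 0.852%, with a match 18 bases after the Zfp157 start. The CRE, TGACGTCA, was found in 0 of 56 windows of genes that fell and 0 of 7 of genes that rose. It was found in 7.69% of the windows of members that neither fell nor rose and in 1.79% of all windows, so 0 of 56 lies near the share of all windows. By the same split, ETS letters were in 8.93% of the windows of genes that fell and 14.1% of those that neither fell nor rose. The NRF1 motif was in 8.93% and 11.5%. AP-1 letters (TGANTCA) matched in 2.84% against 7.81%, TATAAA in 6.38% against 13.6%, the ZNF143 motif in 0.709% against 0.286%, and the CArG box in 1.42% against 1.63%. The printed windows of Zfp39 and Zfp451 held none of these motifs. A window of an isolated Zfp gene held a median of 18 CpG, against 7 over all windows. The median was 15 for genes that fell, 25 for those that rose and 20.5 for the other members, and the median GC content was 54.0% for genes that fell against 61.2% for the other members.

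After 1 h of LPS, 47 of the 132 isolated Zfp genes fell and 7 rose. A change was called where the log2 fold change exceeded 1 in size and its adjusted p, from the quasi-likelihood test of edgeR, lay under 0.05. Over all 15687 genes tested, 10.4% fell and 10.5% rose by the same criteria, and over the 12146 coding genes tested 7.4% fell and 9.09% rose. Of the isolated Zfp genes 35.6% fell and 5.30% rose. Their median log2 fold change was -0.48, against -0.01 over all tested genes, and the medians of the 3 same-numbered library pairs were -0.50, -0.48 and -0.52. With scaling by library size alone, which moved the median of all tested genes by -0.40 on the log2 scale, 63 fell and 5 rose, against 18.9% and 7.73% of all tested genes. With upper quartile scaling 52 fell and 5 rose, against 12.6% and 9.35%. All 47 falls were lower in each of the 3 same-numbered pairs and all 7 rises higher in each. The calls were made on these same libraries, so this agreement is near to given and adds no support. The same applies where groups of a called gene are said below not to overlap. LPS lay below PBS with no overlap for 87 of the 132 (36.6% of all tested genes) and above it with no overlap for 22 (33.9%). Among the 47, 9 fell by more than 4-fold, which 2.48% of all tested genes did. In bulk RNA, fewer cells of a type and less RNA per cell cannot be told apart.

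**Figure D1:**
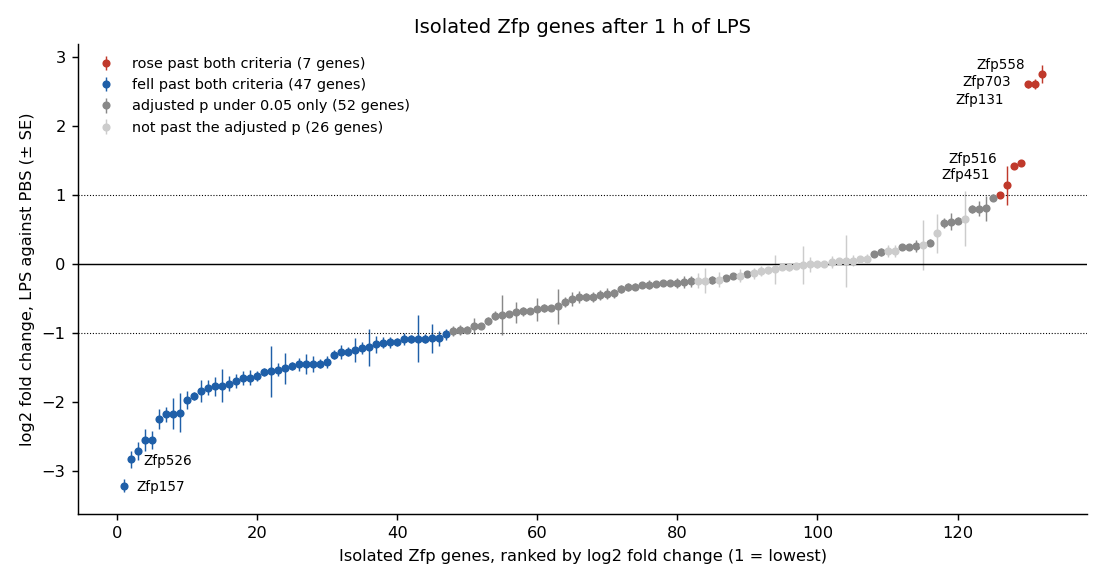
Log2 fold change (LPS against PBS, edgeR) with its SE for each of the 132 isolated Zfp genes, ranked from the lowest, in colours for the 47 that fell, the 7 that rose, the 52 with an adjusted p under 0.05 only and the 26 without; dotted lines mark a change of 2-fold. The points run from -3.21 for Zfp157 to 2.74 for Zfp558, and 3 rises (Zfp558, Zfp703 and Zfp131) stand apart from the rest at the upper end.

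The summed level of the isolated Zfp genes depended on the scaling. It was 3416 ± 43.3 normalized CPM in PBS and 3328 ± 41.2 in LPS (SD, n = 3 libraries each), a change of -2.57%, and with library size alone 3928 ± 43.9 and 2891 ± 48.4, a change of -26.4%. The 47 that fell went from 511.7 ± 9.81 to 182.5 ± 0.340 CPM, or by -64.3%, and the 7 that rose went from 209.4 ± 6.00 to 674.5 ± 4.73 CPM. With library size alone the 47 went from 588.4 ± 9.88 to 158.5 ± 0.499 and the 7 from 240.8 ± 7.27 to 585.9 ± 1.27. The CPM added by the 7 rises was thus larger than that lost by the 47 falls after TMM scaling and smaller with library size alone. These sums follow from the calls and are a description. Per kb of exon, the highest levels in PBS were those of Zfp106 (24.97 CPM per kb), Zfp710 (22.5) and Zfp207 (19.6), the median was 2.82, and the lowest was Zfp507 (0.0307).

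Zfp157, a KRAB gene with 11 finger matches, fell the most. It is annotated at chr5:138441468-138460694 (GRCm38, + strand) and had 856, 767 and 798 counts in the PBS libraries and 69, 63 and 56 in the LPS libraries. The groups lay far apart, at 17.4 ± 0.511 and 1.88 ± 0.210 normalized CPM, a log2 fold change of -3.21 (SE 0.095, adjusted p = 1.52e-15 by edgeR). Zfp526, without a KRAB signature and with 13 finger matches, lies at chr7:25221425-25227507 (+ strand). Its counts were 712, 573 and 533 in PBS and 64, 52 and 68 in LPS, with no overlap between the groups. It fell by 2.83 on the log2 scale (SE 0.12, adjusted p = 6.56e-13 by edgeR). Zfp39, a KRAB gene at chr11:58888153-58904225 (- strand), had 300, 285 and 299 counts in PBS and 28, 33 and 36 in LPS, a log2 fold change of -2.71 (SE 0.13, adjusted p = 1.97e-12). Its exons share 444 bp with Gm12256 on the other strand, and 2 coding genes with at least 5 finger matches (2810021J22Rik and Gm12258) lie within 100 kb.

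The next falls were of the same size in genes of both kinds. Zfp449, without a KRAB signature, with 7 finger matches and on the X chromosome, had 163, 152 and 150 counts in PBS and 20, 19 and 18 in LPS. Zfp442, a KRAB gene with 17 finger matches, had 283, 274 and 261 counts in PBS and 33, 37 and 31 in LPS. The log2 fold changes were -2.55 (SE 0.16) for Zfp449 and -2.54 (SE 0.13) for Zfp442, a difference smaller than either SE. The KRAB genes Zfp873 and Zfp189, each with 16 finger matches, fell by 2.25 (SE 0.14) and 2.18 (SE 0.11) on the log2 scale. Counts of Zfp873 were 267, 219 and 226 in PBS and 32, 40 and 36 in LPS, and those of Zfp189 were 423, 366 and 387 in PBS and 64, 63 and 60 in LPS. In none of these 4 genes did an LPS library reach a PBS library. Zfp442 lies within 100 kb of Zfp345, a Zfp gene under 60 counts, and Zfp873 of AU041133 and BC024063, both with at least 5 finger matches.

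Zfp3 and Zfp791 had fewer counts and wider errors. Zfp3, which has 13 finger matches and no KRAB signature, had 117, 179 and 165 counts in PBS and 18, 32 and 24 in LPS, with a log2 fold change of -2.17 (SE 0.22). Zfp791, a KRAB gene, had 65, 89 and 87 counts in PBS and 17, 5 and 17 in LPS, with a log2 fold change of -2.15 (SE 0.29). LPS replicate 2 was the low library of Zfp791, and PBS replicate 1 the low library of Zfp3 within its group. Zfp970, a KRAB gene with 3 coding neighbours of at least 5 finger matches (Gm14403, Gm14406 and Gm14418), had 311, 242 and 272 counts in PBS and 53, 46 and 53 in LPS and fell by 1.97 (SE 0.13). Adjusted p-values of these 7 genes by edgeR ran from 2.66e-12 for Zfp189 to 3.00e-06 for Zfp791. The sources used here do not state how reads shared between near-identical genes were counted, so values of KRAB genes with close relatives nearby are uncertain to that extent.

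The other 37 falls ran from -1.91 for Zfp90 to -1.02 for Zfp949, and 22 of them had the KRAB signature. Zfp90, a KRAB gene, was among the more abundant, with 1430, 1358 and 1339 counts in PBS and 274, 253 and 267 in LPS. Of its 7823 exonic bp, 6222 overlap Gm26786 on the other strand. Zfp319, without a KRAB signature, had 1409, 1390 and 1380 counts in PBS and 326, 364 and 329 in LPS (log2 fold change -1.56, SE 0.062). Both of these genes were named after their values were seen.

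**Figure D2:**
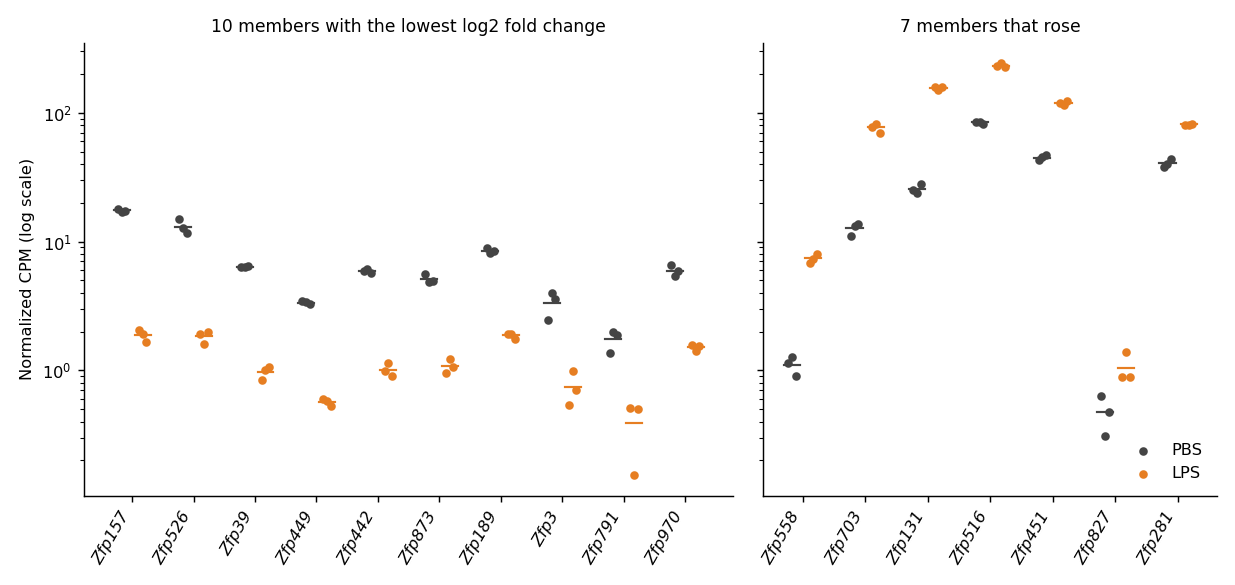
Normalized CPM (log scale) in each of the 3 PBS and 3 LPS libraries for the 10 isolated Zfp genes with the lowest log2 fold change and for the 7 that rose; short lines mark group means. The groups do not overlap for any of the 17 genes, which follows largely from how these genes were chosen. The points of Zfp827, Zfp791 and Zfp3 are the most spread.

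The rises were mostly genes without KRAB, and several were already abundant. Zfp131 encodes a BTB zinc finger transcription factor and lies at chr13:119765187-119790889 (- strand). It had 1197, 1084 and 1296 counts in PBS and 5317, 4936 and 5402 in LPS, and the lowest LPS library stood far above the highest PBS library. Its level went from 25.7 ± 2.11 to 156.1 ± 4.25 normalized CPM, a rise of 2.60 on the log2 scale (SE 0.048, adjusted p = 1.43e-18 by edgeR). Zfp703, a NET family corepressor known from luminal breast cancer, lies at chr8:26977325-26981461 (+ strand) and had no match to the finger pattern. It had 526, 598 and 633 counts in PBS and 2623, 2682 and 2387 in LPS, also a rise of 2.60 (SE 0.070, adjusted p = 3.66e-16). Its exons share 459 bp with Gm45371 on the other strand, and the strand setting of the counting is not given in the sources used here. The largest rise was that of Zfp558 at chr9:18455575-18478268 (- strand), the 1 KRAB gene among the 7. Zfp558 had 54, 57 and 42 counts in PBS and 230, 239 and 273 in LPS, with no overlap, a rise of 2.74 (SE 0.13, adjusted p = 1.99e-12). Between these 3 genes the log2 fold changes differed by about 1 SE of Zfp558.

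Zfp516 and Zfp451 rose less in fold but from a high level. Zfp516, a transcription factor known for activating Ucp1 in brown fat, had 4027, 3861 and 3790 counts in PBS and 7673, 7902 and 7708 in LPS. Its normalized level went from 84.1 ± 1.72 to 232.4 ± 8.46 CPM, a rise of 1.47 (SE 0.036, adjusted p = 8.69e-17 by edgeR). Zfp451, a SUMO ligase that extends SUMO chains, lies at chr1:33761545-33814595 (- strand) and had 2035, 2032 and 2148 counts in PBS and 3991, 3757 and 4233 in LPS. It rose by 1.42 (SE 0.041, adjusted p = 1.36e-15), and its groups did not overlap.

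Zfp827 and Zfp281 were the rises nearest the limit. Zfp827, known for bringing the NuRD complex to telomeres, had only 30, 14 and 22 counts in PBS and 30, 45 and 30 in LPS, with a log2 fold change of 1.14 (SE 0.28, adjusted p = 0.00174 by edgeR). Raw counts of PBS replicate 1 equalled those of LPS replicates 1 and 3, and the groups separated only after scaling, at 0.310 to 0.630 CPM against 0.881 to 1.38. Its log2 fold change fell under 1 without PBS replicate 2 (0.92), without LPS replicate 2 (0.90), with upper quartile scaling (1.00, just under the limit) and with library size alone (0.74). Its exons share 161 bp with Gm45728 on the same strand. Zfp281, a GC-box binding regulator of pluripotency genes, had 1810, 1821 and 2002 counts in PBS and 2711, 2630 and 2803 in LPS. Its log2 fold change of 1.00 (SE 0.045, adjusted p = 7.60e-13) passed the limit by less than its SE. It lay between 0.96 and 1.00 without PBS replicate 1, without PBS replicate 2 or without LPS replicate 3, each just under the limit, at 0.86 with upper quartile scaling and at 0.60 with library size alone.

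Of the 52 isolated Zfp genes with an adjusted p under 0.05 but a log2 fold change within 1, 13 were higher and 39 lower in LPS. Each was so in all 3 pairs, which a small p on the same libraries makes likely. Over all tested genes, 67.7% had an adjusted p under 0.05, against 106 of the 132 here. The 13 higher ran from 0.14 (Zfp715) to 0.96 (Zfp800) on the log2 scale. Those from Zfp715 up to Zfp384 (0.31) were smaller in size than the shift of the overall median with library size alone (-0.40). The 26 others ran from -0.24 to 0.66, and included low genes such as Zfp507, with 8, 10 and 17 counts in PBS and 15, 17 and 8 in LPS, where the depth could not show a difference (log2 fold change 0.66, SE 0.39).

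KRAB genes made up 29 of the 47 falls. Of the 45 isolated genes with the KRAB signature, 64.4% fell and 1 rose, with a median log2 fold change of -1.25. Of the 87 without it, 18 fell and 6 rose, with a median of -0.24. The same order was seen among the clustered genes, where 97 of 131 with the signature fell (median -1.57) against 20 of 44 without it (median -0.98). Clustered genes as a whole had 117 falls and 6 rises among 175 and a median of -1.41. Within either KRAB class the isolated genes thus had the smaller share of falls, 64.4% against 74.0% with the signature and 20.7% against 45.5% without it. No test between these lists was run, and the counts are given as a description.

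**Figure D3:**
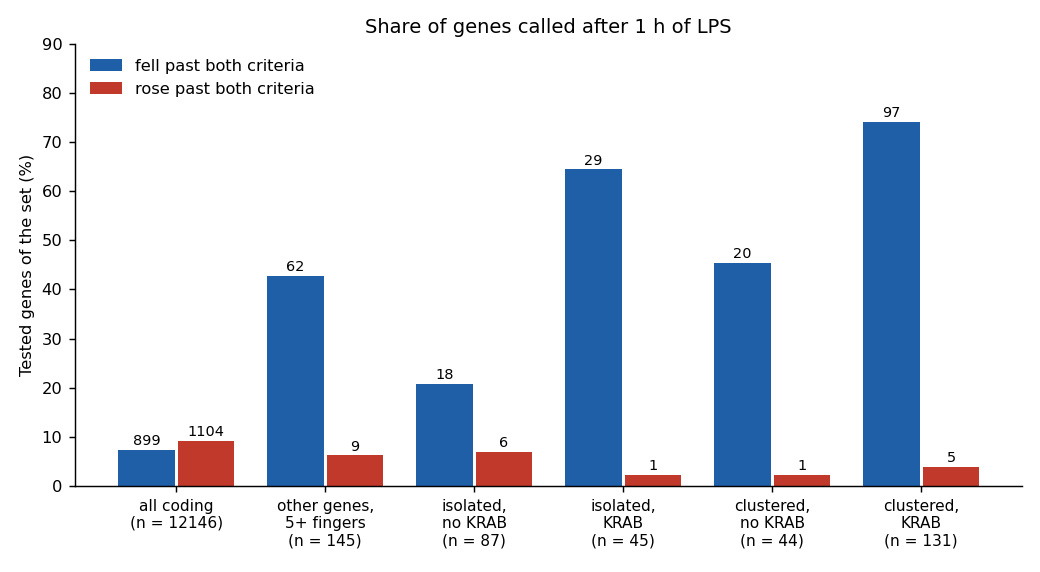
Percent of tested genes that fell (blue) or rose (red) past both criteria in all coding genes, other coding genes with at least 5 finger matches, and isolated and clustered Zfp genes with and without the KRAB signature; numbers over the bars are genes. The blue bars stand at 7.4% for all coding genes and at 20.7% and 64.4% for isolated genes without and with the signature, and the red bars lie between 2.22% and 9.09% in the sets shown.

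Most falls were in genes with many fingers. Of 33 isolated genes with 0 to 4 finger matches 4 fell, of 41 with 5 to 9 matches 10 fell, and of 58 with 10 or more 33 fell. Without the KRAB genes, the counts were 3 of 31, 3 of 29 and 12 of 27. Across the 132 genes, Spearman's rho between finger matches and log2 fold change was -0.39, and it was -0.25 over the 87 genes without KRAB and -0.15 over the 45 with it. All points share the same 6 libraries, and genes are not independent replicates. Genes of other names with at least 5 finger matches were counted for comparison: of 145 tested, 62 fell and 9 rose, with a median of -0.75. Zfp142 with 36 finger matches fell by 1.08, while Zfp462 with 33 had a log2 fold change of 0.80.

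**Figure D4:**
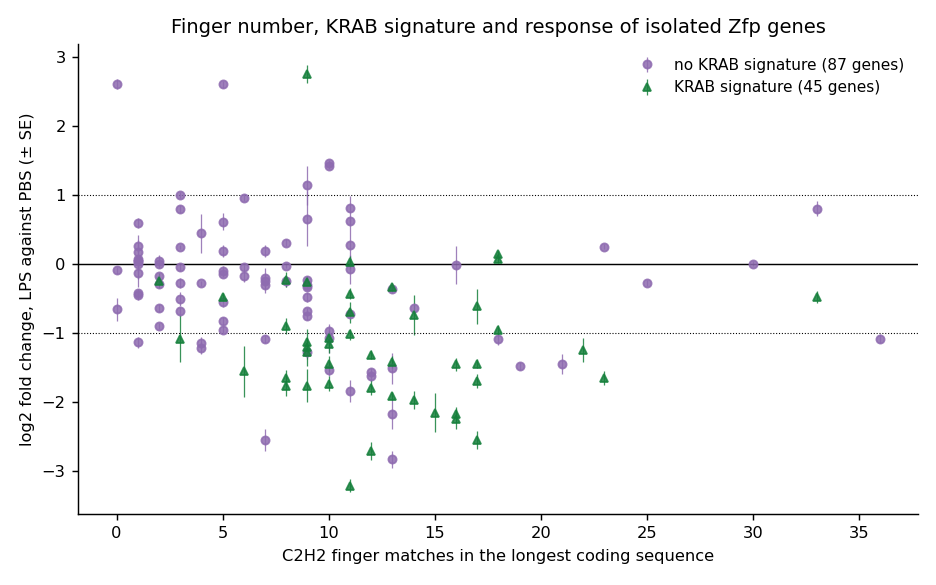
Log2 fold change (± SE) against the number of C2H2 finger matches for the 132 isolated Zfp genes, with triangles for the 45 genes with the KRAB signature and circles for the 87 without; dotted lines mark a change of 2-fold. Most triangles lie below 0 at 8 to 23 matches, with Zfp558 as the triangle at the top, and the circles at 0 to 4 matches spread around 0.

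Gene structure and level moved with the same split. Of the 53 isolated genes with 1 to 5 exons in their longest exon chain 29 fell, of the 48 with 6 to 9 exons 15 fell, and of the 31 with 10 or more 3 fell. Over all coding genes tested, the shares of falls in these bins were 16.02%, 7.15% and 2.94%. Spearman's rho with the log2 fold change over the 132 genes was 0.42 for exon number, 0.35 for gene length and 0.32 for exonic length. It was 0.22 for the level in PBS, in CPM and not per kb. Over 12146 coding genes these were 0.16, 0.23, 0.13 and 0.13. By level per kb of exon in PBS, 11 of 29 genes under 1 CPM per kb fell, 34 of 66 between 1 and 5, and 2 of 37 above 5. Over all tested genes, at any level, 10.4% fell. Shares of all genes in these level bins were not computed, so the bins cannot show a trait of isolated Zfp genes. The PBS level also enters the log2 fold change itself. Of the 3 most abundant per kb in PBS, Zfp106 was at 0.24, Zfp207 at -0.18 and Zfp710 at -0.72. KRAB content, finger number, exon number and level move together in these genes, and their separate parts were not tested.

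Of the 30 isolated Zfp genes in 4 lists of known roles outside KRAB silencing, 4 rose and 2 fell. These 6 are a share near the 20.9% of all tested genes that passed both criteria in either direction. In the list for ribosome and translation control, 0 of 3 passed both criteria. Zfp622, a factor of late large-subunit maturation, had 1689, 1793 and 1767 counts in PBS and 2083, 2345 and 2147 in LPS, a log2 fold change of 0.80 (SE 0.055, adjusted p = 4.40e-10 by edgeR) that stayed under the limit. Zfp598, the ligase that marks collided ribosomes, was at 0.17 (SE 0.057, adjusted p = 0.0142). Its sign turned to -0.24 with library size alone. Zfp593, a nuclear factor of large-subunit assembly, was at -0.01 (SE 0.10) and changed sign between settings.

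In the list of RNA binding and splicing proteins, 1 of 6 fell and 0 rose, where 10.4% and 10.5% of all tested genes did. The fall was that of Zfp346, a protein that binds double-stranded RNA, with 526, 516 and 544 counts in PBS and 180, 155 and 157 in LPS. Its log2 fold change was -1.22 (SE 0.085, adjusted p = 5.26e-10 by edgeR). The others lay between -0.45 for Zfp830, a splicing factor, and 0.24 for Zfp106, which binds RNA repeats and was the most abundant isolated Zfp gene per kb in PBS. The sign of Zfp106 turned to -0.16 with library size alone. Zfp638, Zfp207 and Zfp326, which act with splicing or elongation factors, were at -0.29, -0.18 and -0.14.

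Among ubiquitin and SUMO ligases, Zfp451 rose as given above, and Zfp91, a ubiquitin ligase linked to noncanonical NF-kB signalling, was at -0.15 (SE 0.044, adjusted p = 0.00603 by edgeR). Its exons share 847 bp with Cntf on the same strand. Zfp598 also belongs to this list.

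The chromatin cofactor list had 19 members, of which 3 rose (Zfp703, Zfp516 and Zfp281), 1 fell and 16 had an adjusted p under 0.05. Over all tested genes 10.5% rose, 10.4% fell and 67.7% had such a p, and the 4 calls of 19 lie near the 20.9% called in either direction. The fall was that of Zfp143, an activator bound at many promoters, with 1223, 1208 and 1284 counts in PBS and 405, 414 and 445 in LPS. Its log2 fold change was -1.08 (SE 0.058, adjusted p = 1.13e-11 by edgeR). Zfp410, known as an activator of Chd4, was at -0.82 (SE 0.061), and Zfp687 and Zfp592, partners in a complex with Zmynd8, were at -0.75 (SE 0.067) and -0.68 (SE 0.045). Zfp532, of the same complex, had 53, 50 and 46 counts in PBS and 28, 30 and 44 in LPS and a log2 fold change of -0.08 (SE 0.21), with LPS replicate 3 above the other LPS libraries. Zfp503, the relative of Zfp703 in the NET family, was at -0.66 (SE 0.17) where Zfp703 rose. Zfp292 was at -0.63 and Zfp335, a subunit of an H3K4 methyltransferase complex, at -0.36. Zfp644 and Zfp462, both partners of the H3K9 methyltransferases G9a and GLP, were at -0.30 and 0.80. Zfp609 and Zfp608, a pair of related genes, were at 0.59 and 0.26, and the sign of Zfp608 turned to -0.15 with library size alone. Zfp148, Zfp652 and Zfp217 were at -0.28, -0.20 and -0.02, and Zfp618, with 16 to 24 counts per library, was at 0.44 (SE 0.28). With library size alone, Zfp410, Zfp687, Zfp592, Zfp292 and Zfp503 also passed the criteria downward. The lists were written with earlier results on these libraries in view.

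**Figure D5:**
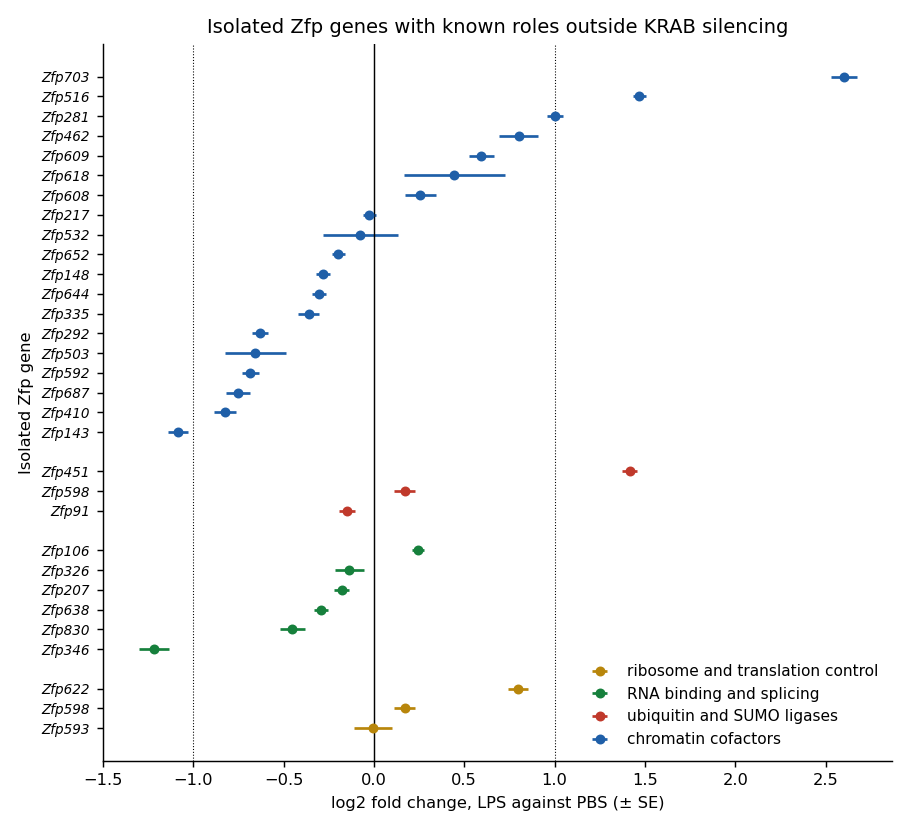
Log2 fold change (LPS against PBS, ± SE) of the isolated Zfp genes in the lists for chromatin cofactors, ubiquitin and SUMO ligases, RNA binding and splicing, and ribosome and translation control; dotted lines mark a change of 2-fold, and Zfp598 appears in 2 lists. Most points lie between the dotted lines, with Zfp703, Zfp516, Zfp451 and Zfp281 on the upper side and Zfp346 and Zfp143 on the lower side.

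A list of KRAB silencers of imprints and retroelements had 0 isolated members. Its 5 tested genes were clustered, and all 5 had an adjusted p under 0.05, against 67.7% of all tested genes. Of these 5, 1 fell (Zfp961, -1.89), where 10.4% of all tested genes and 66.9% of clustered Zfp genes did. Their log2 fold changes ran from -1.89 to -0.65, and Zfp57 had 3 counts over all libraries. The partners through which KRAB proteins act were listed separately. Of the 16 genes in the list of KAP1 and HUSH components, all tested, 0 rose and 1 fell, 14 had an adjusted p under 0.05, and the median was -0.22, against 10.5%, 10.4%, 67.7% and -0.01 over all tested genes. Trim28 itself had 5003, 4703 and 4764 counts in PBS and 3050, 3001 and 2959 in LPS, at -0.21 on the log2 scale (SE 0.035, adjusted p = 3.26e-05 by edgeR). The fall was that of Atf7ip, the partner that stabilizes Setdb1, at -1.09 (SE 0.041). With library size alone 2 of the 16 fell.

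Neighbouring genes were examined because 17 isolated Zfp genes share a start region, within 1 kb and in the opposite direction, with another gene. Of the 17 partners 13 were tested, 3 fell and 0 rose, where 10.4% and 10.5% of all tested genes did. Their median log2 fold change was -0.19, against -0.97 for the 17 Zfp genes. Zfp526 fell together with its partner Dedd2 (-1.25, SE 0.087), which was the 1 pair with falls on both sides. Zfp189 fell beside Mrpl50 (-0.84, SE 0.067), Zfp661 (-1.77) beside Mrps5 (-0.26) and Zfp319 beside Usb1 (-0.19). Partners fell where the Zfp gene did not pass the criteria in Vps9d1 (-1.12) beside Zfp276 (-0.95) and Cct6b (-1.27, SE 0.41) beside Zfp830. Exons of Zfp276 share 1074 bp with Fanca and Vps9d1 on the other strand. With the strand setting of the counting not given, the values of Zfp276 and Vps9d1 may not be separate. Cct6b had only 16, 15 and 13 counts in PBS and 4, 5 and 4 in LPS. Mbd3l1, the partner of Zfp558, had 0 counts in all 6 libraries.

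Exon overlap with other genes touched 44 of the 132, 9 on the same strand and 38 on the other. Of the 88 without overlap 37 fell and 5 rose (median -0.64), and of the 44 with overlap 10 fell and 2 rose (median -0.29). Overlap on the other strand covered 1627 of 2088 exonic bp in Zfp593, 2577 of 8970 in Zfp532, 2719 of 10429 in Zfp106 and 1341 of 4743 in Zfp335. In Zfp652 it covered 2974 of 15444 exonic bp, with 1818 bp shared on the same strand (Abi3, Phospho1 and Zfp652os over both strands). The 25 genes with a multi-finger neighbour had 12 falls and 0 rises, and the 107 without had 35 falls and 7 rises (median -0.42). The falls were found on 16 of the 20 chromosomes that hold isolated Zfp genes, with the most on chromosome 7 (7 of 15 genes).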

How the data were processed

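Total RNA libraries of 3 PBS and 3 LPS BMDM cultures were prepared with a stranded kit and read as read pairs. The authors checked the reads with FastQC 0.11.9, aligned them to GRCm38 with HISAT2 2.1.0, handled the alignments with SAMtools 1.17 and deposited raw counts per gene from featureCounts 2.0.0. The annotation release, strand setting and handling of multi-mapping reads are not given in the sources used here, so overlapping and near-identical genes are uncertain. Of the 55335 identifiers, 55154 matched GENCODE M21 without the version suffix, and the other 181 have no symbol here. Gene positions follow that release on GRCm38 (counting starts at 1).

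From the counts, LPS and PBS were compared with edgeR 4.0.16 in R 4.3.3 (default filterByExpr filter, 15687 genes, TMM scaling, quasi-likelihood test, Benjamini-Hochberg adjustment over all of them). SEs were taken from the F statistic. TMM factors averaged 1.15 in PBS and 0.869 in LPS. A floor of 3 counts was 0.0630 to 0.0919 CPM, covering counting error only, and no gene named with a fold change lay at it in either group. The functions were tested on simulated counts.

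The members and all gene lists were chosen with earlier results of these data known. The result of 1 marker list is not reported here. The genes named are the 10 lowest and up to 10 highest changes among members past both criteria that average 20 counts or more a library and move in 1 direction in all 3 pairs, the members of 5 role lists, Trim28, Tnf and Il1b. Others are named as the values at a limit, a level, a neighbour or a setting, after their values were seen.

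The labels give each group replicates 1 to 3 and call the same numbers batches, which is where the pairing comes from. Departures from the group mean correlated, for libraries of the same number, at -0.0139, 0.0822 and 0.0387 across genes, against a mean of -0.0178 for different numbers. The main model had no block, since the methods of the study describe pairwise comparisons and name none, and a blocked model was fitted beside it. Other alternatives were 3 scalings, 2 filters, DESeq2 1.42.0, limma 3.58.1 voom, a test against a log2 fold change of 1, leaving out the 10 most abundant genes or each library in turn, and other membership rules. Exact permutation tests of 3 libraries against 3 cannot give a p below 0.1 and were not used.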

Additional observations from a re-analysis of the deposited data

How the results depend on the processing

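All 47 falls were called again with DESeq2's size factors, limma voom, the replicate block, no filter, without the 10 most abundant genes, and with the other scalings. With the replicate block, 47 members fell and 7 rose, their median log2 fold change was -0.48, and no member's call changed. DESeq2's test lost Zfp979. Leaving out 1 library gave 45 to 47 falls and 5 to 7 rises, with a median of -0.51 to -0.47; Zfp979 (without PBS replicate 1 or LPS replicate 3), Zfp949 (PBS replicate 3 or LPS replicate 1), Zfp341 (LPS replicate 1 or LPS replicate 3), Zfp69 and Zfp867 (LPS replicate 3) lost their calls, and Zfp113 and Zfp160 gained one without LPS replicate 3. A filter of 10 counts in every library kept 125 members, of which 43 fell and 6 rose, and left 1027 falls among all genes. The test against a log2 fold change of 1 left 922, and 34 falls and 5 rises among the members. Those 2 settings test fewer genes or a stricter limit by construction. With library size alone, the median was -0.88 for members and -1.82 for clustered Zfp genes, 2 genes of the KAP1 and HUSH list fell, and 2964 of all genes fell. In an alternative added after the data were seen, it moved the change of the members' summed CPM from -2.57% to -26.4%. Under it 16 members gained a fall, and Zfp281 and Zfp827 lost their rise. With upper quartile scaling the medians were -0.62 and -1.56, and Zfp281 and Zfp827 again lost their rise. With no filter the members' median was -0.50, and Zfp281 lost its call (0.98). Zfp281 also lost it with the filter of 10 counts (0.99) and without the 10 most abundant genes (1.00, just under the limit). Among the genes named by the rule, the signs of Zfp106 (-0.16), Zfp598 (-0.24) and Zfp608 (-0.15) turned with library size alone. Signs of the other members under that scaling are not given here. Zfp593 turned to 0.0126 with both DESeq2's size factors and DESeq2's test, and ran from -0.0844 (without LPS replicate 2) to 0.0731 (without PBS replicate 2) when 1 library was left out. Zfp532 ran from -0.294 (without LPS replicate 3) to 0.0464 (without LPS replicate 1). The members' median was -0.65 with a distance of 50 kb (152 genes), -0.39 with 250 kb (110), -0.53 with at least 240 counts (124) and, in alternatives added after the data were seen, -0.64 without exon overlap and -0.42 without a multi-finger neighbour. The cause of these differences was not tested. SEs were wide for members with few counts, such as Zfp507 (0.39) and Zfp827 (0.28).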
